A study of Mus musculus with 5 samples.

Results

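The natriuretic peptide system was described here by 6 genes in spatial transcriptomes of the neonatal mouse heart. They were the ligands Nppa and Nppb, the protease Corin, and the receptors Npr1, Npr2 and Npr3. The genes were chosen by symbol, and all 6 were among the 13711 genes listed in each of 5 expression tables. Each table held 1 transverse heart section of a wild-type C57BL/6 mouse, read on a Visium slide, where a grid of barcoded spots captures RNA and each spot can hold several cells. Myocardial infarction (MI), made by tying off a coronary artery (the left anterior descending, LAD), or sham surgery was done at postnatal day 1. Sections from 200 µm below the ligation, or the equivalent level in sham hearts, were collected 3 or 7 days later. The groups were sham at day 3 (n = 1 section), MI at day 3 (n = 1), sham at day 7 (n = 1) and MI at day 7 (n = 2). The study's supplement describes the MI day 7 sections as biologically independent, and the other groups had 1 sample each, so the spread behind the p-values below comes from few animals. The test used also borrows spread from other genes.

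Nppa and Nppb encode the precursors of atrial (ANP) and brain (BNP) natriuretic peptide, hormones that cardiomyocytes secrete when the heart wall is stretched. Corin is a membrane protease of cardiomyocytes that cleaves pro-ANP. Both peptides bind the receptor guanylyl cyclase encoded by Npr1, which makes cGMP, and cGMP relaxes vessels and promotes salt excretion. Npr2 encodes the related cyclase for C-type natriuretic peptide, and Npr3 encodes the clearance receptor, which removes all of these peptides. Nppa and Nppb are expressed in the embryonic heart and are normally low in adult ventricular muscle, where injury and load raise them.

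Nppb and Nppa are neighbours on mouse chromosome 4, both on the plus strand. In the GENCODE annotation of GRCm38, Nppb spans chr4:147985788-147987205 and Nppa chr4:148000722-148002079, with 13516 bases between them. Npr1 lies at chr3:90450591-90465866, Npr2 at chr4:43631935-43651244, Npr3 at chr15:11839896-11907287 and Corin at chr5:72300025-72504473. Promoter sequence is shown for the ligands only, since their levels correlated across spots. The Nppa line gives the 250 bases before the annotated start (chr4:148000472-148000721, plus strand, RefSeq, GRCm38.p6). The Nppb line gives 30 bases with a pair of GATA matches (chr4:147985799-147985828, plus strand), 84 and 95 bases before the RefSeq start. That start lies 112 bases downstream of the GENCODE start, so by GENCODE the pair lies inside the gene, after its start. The 138 bases upstream of both Nppb starts (chr4:147985650-147985787), not printed, hold none of the matches marked below. Capitals mark exact matches on either strand to the GATA letters TGATAA or AGATAA, the T-box letters AGGTGTGA and the Nkx2-5 letters TNAAGTG.
Nppa upstream: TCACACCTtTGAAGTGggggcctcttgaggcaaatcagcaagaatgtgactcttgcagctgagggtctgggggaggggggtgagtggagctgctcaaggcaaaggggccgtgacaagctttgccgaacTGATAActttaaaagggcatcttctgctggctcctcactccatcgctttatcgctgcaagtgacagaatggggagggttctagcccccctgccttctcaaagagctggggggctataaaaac
Nppb GATA pair: tgcagcTGATAAatcagAGATAAccccacc
In the Nppa line, the T-box match starts 250 bases, the Nkx2-5 match 241 bases and the TGATAA match 122 bases before the start. Of 32851 mouse promoter windows of the same 250 bases, 7.94% held TGATAA, 9.99% AGATAA, 1.12% AGGTGTGA and 10.1% TNAAGTG. Of the other motifs searched on both strands, the M-CAT letters CATTCC (12.6% of windows) were in the Nppb window alone, and the E-box letters CANNTG (66.2%) and the TATAAAA letters (4.98%) were in both. The AP-1 letters TGANTCA (6.75%) and the CArG box (1.47%) were in neither. The CANNTG match of Nppb overlaps its TGATAA. A match describes the letters only and is not a measured binding site.

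The sections held 366 to 960 spots over tissue, 3343 in all. Total UMIs were 11396022 to 37483563 per section, and the median per spot was 20842.5 to 53988.5. MI day 7 replicate 1 was the deepest section. Ventricular cardiomyocyte markers (8 genes, among them Myl2 and Tnnt2) summed to 41836 to 52029 CPM in the 5 sections. Of the 8 atrial markers, Sln was listed in 2 tables, with at most 9 counts, and Bmp10 in 4, with at most 16 counts. Myl4 was better detected, with 333 to 921 counts a section. Myl7 had 239 counts in sham day 3 and 553 in MI day 3, but only 21 to 53 at day 7. In sham day 3, Kcnj3 had 56 UMIs and Nr2f1 had 71. Xist was listed with counts in the sham day 3 section and in MI day 7 replicate 1, and Ddx3y in the other 3, so at day 3 surgery and sex cannot be told apart. The MI day 7 sections also differed in sex and depth, which cannot be told apart from the spread between animals. Levels are given as CPM (a gene's count in a spot, scaled so that the shared genes sum to the same total in each spot), averaged over the spots of a section, and only the same gene is compared between sections.

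Nppa was highest in the MI day 3 section and differed widely between the MI day 7 sections. Its mean level was 612 CPM in sham day 3, 312 CPM in sham day 7, 8170.1 CPM in MI day 3, and 159 and 1260.0 CPM in MI day 7 replicates 1 and 2. MI day 3 was 6.48-fold above the next highest section, and MI day 7 replicate 1 was below both sham sections, so MI and sham sections overlapped. Counts of Nppa were present in 87.4% to 100% of the spots of each section. At MI day 3, Nppa took 0.817% of all values and ranked 9 of 13711 genes by level, against ranks 237 and 420 in the sham sections. Its spots ranged widely: the median spot of MI day 3 held 3099 CPM, the 90th percentile 24231 CPM and the highest 44386 CPM.

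Nppb varied far less. Its mean level was 119.5 CPM in sham day 3, 222 CPM in sham day 7, 243 CPM in MI day 3, and 131 and 229 CPM in MI day 7 replicates 1 and 2. The lowest section was a sham section and the highest an MI section, but the groups overlapped. As for Nppa, MI day 7 replicate 1 was the lowest MI section. In the sham day 3 section, whose table held raw UMIs, the levels rested on 6935 UMIs of Nppa (95% Poisson interval 594 to 623 CPM) and 1390 of Nppb (116 to 129 CPM). These intervals cover counting error only.

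**Figure D1:**
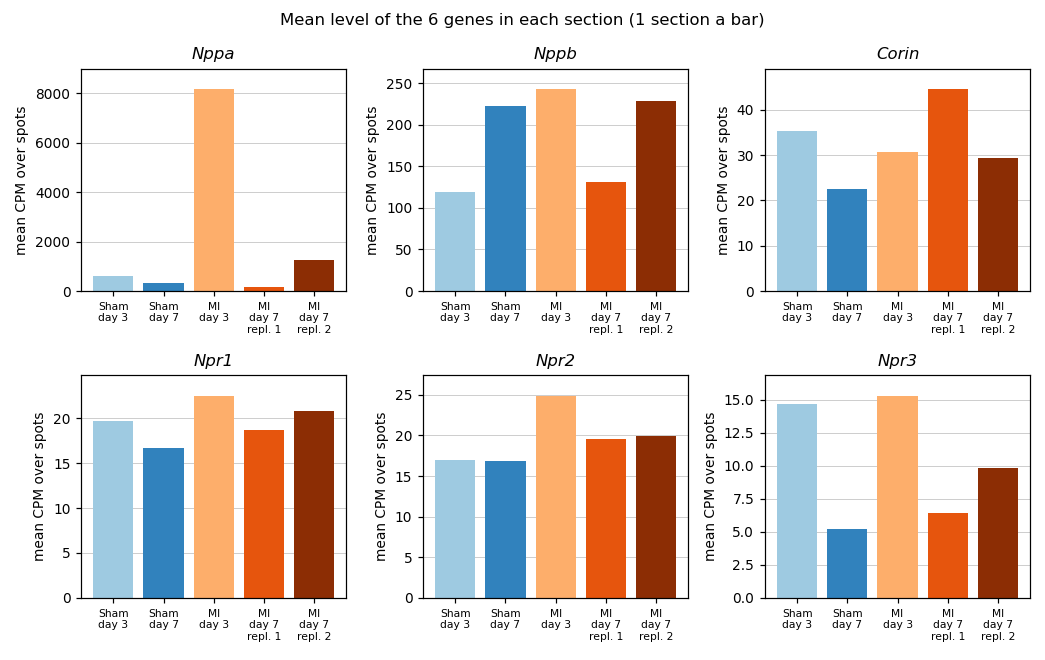
Mean level (CPM, linear axis from 0, 1 bar a section) of the 6 genes in the 5 sections. Nppa reached 8170.1 CPM in MI day 3 against 159 to 1260.0 CPM in the others, Npr2 alone had its 3 MI bars above both sham bars, and Npr3 and Nppb overlapped between MI and sham.

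The first comparison was MI against sham within a day. At day 3, with 1 section a group and so no test, Nppa was 13.4-fold higher in the MI section (log2 difference 3.74), which placed it 8 of 12948 genes, and Nppb was 2.03-fold higher (1.02), at place 455. Of the 12948 genes tested, 3.62% were at least 2-fold higher in that section, and 2 of the 6 genes were. Under median-of-ratios scaling, a pseudocount of 10 or pooled CPM it was 1 of 6. The sham day 3 table held raw UMIs and the MI day 3 table depth-corrected counts, and the part of this in the difference was not tested. At day 7 the MI mean of Nppa was 709 ± 779 CPM (SD, n = 2), with replicate 1 at 0.508 and replicate 2 at 4.04 times the sham section. Nppb was 180 ± 69.7 CPM (SD, n = 2) in MI day 7, at 0.588 and 1.03 times the sham section. In descending order of Nppa (MI day 3, MI day 7, sham day 3, sham day 7), both sham levels lay within 1 SD of the MI day 7 mean. The Nppb levels of MI day 3, sham day 7 and sham day 3 all lay within 1 SD of the MI day 7 mean too.

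None of the 6 genes passed the test at day 7 (limma on log2 of mean CPM plus 1, Benjamini-Hochberg adjusted p under 0.05, against 0.0695% of all genes called higher and 0 lower). The log2 differences at day 7 were 0.52 (SE 0.79) for Nppa and -0.36 (SE 0.30) for Nppb, both with an adjusted p of 0.999. Of the 6, only Corin had an unadjusted p under 0.05. Across both days, with day as a term, Nppa was higher in MI by 1.90 (SE 0.96, adjusted p = 0.684) and Nppb by 0.23 (SE 0.34, adjusted p = 0.905), and again 0 of 6 genes were called. The share of all genes called was 0.00772% higher and 0 lower, while 720 were higher and 340 lower before adjustment (p under 0.05, limma). Without MI day 7 replicate 1 the difference of Nppa was 2.87 (adjusted p = 0.00942), and with sex as a covariate it was 1.54 (adjusted p = 7.15e-06). Both fits left 1 residual degree of freedom, so their spread was taken mostly from other genes. They also called more genes, 206 higher and 25 lower of 12899 without that section and 426 higher and 150 lower of 12948 with sex. Without sham day 3 or MI day 3 the difference was 0.52, the value at day 7. Without sham day 7 it was 3.74, the value at day 3, with 1 section a group. In spots led by the score of CM1 cardiomyocytes, 1 of the cell type scores described below, it was 0.70.

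The MI effect at day 7 minus that at day 3 was -3.22 on the log2 scale for Nppa (SE 1.21, unadjusted p = 0.0211, adjusted p = 0.734) and -1.38 for Nppb (SE 0.47, unadjusted p = 0.012, adjusted p = 0.577). Of the 6 genes 0 passed this test, in which 0.0232% of genes were called higher and 0.0772% lower. Leaving out 1 MI day 7 section moved the difference to -1.73 (without replicate 1) or -4.71 (without replicate 2) for Nppa and to -0.98 or -1.78 for Nppb, with no test. In interior spots alone it was -3.31 for Nppa and -1.43 for Nppb, and in CM1-dominant spots -3.24 for Nppa. The fit put these 3 values past the threshold, but with 1 residual degree of freedom it used a spread pooled over genes in place of the gene's own, while the MI day 7 sections differed 7.94-fold in Nppa. They are not counted as calls here.

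Corin, the pro-ANP protease, was highest in MI day 7 replicate 1, the section lowest in Nppa. Its level was 35.3 CPM in sham day 3, 22.6 CPM in sham day 7, 30.6 CPM in MI day 3, and 44.6 and 29.3 CPM in MI day 7 replicates 1 and 2. The groups overlapped, and the differences were 0.29 across days (SE 0.24, adjusted p = 0.826) and 0.65 at day 7 (SE 0.26, unadjusted p = 0.0252, adjusted p = 0.999). A count of Corin was seen in 37.9% to 88.4% of the spots of a section. The highest share was in MI day 7 replicate 1, which also had the deepest spots, where 1 count was worth 18.5 CPM against 28.6 to 48.1 CPM elsewhere. The part of depth in these shares was not tested.

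Npr1, the ANP and BNP receptor, was the most even of the genes, at 19.7 CPM in sham day 3, 16.7 CPM in sham day 7, 22.5 CPM in MI day 3, and 18.7 and 20.8 CPM in MI day 7. MI and sham sections overlapped, and the difference across days was 0.21 (SE 0.12, adjusted p = 0.732). Npr2, the C-type receptor, was at 17.0 CPM in sham day 3, 16.8 CPM in sham day 7, 24.9 CPM in MI day 3, and 19.5 and 19.9 CPM in MI day 7. Of the 6 genes, Npr2 alone had MI sections all above both sham sections, as did 7.13% of all genes, and none of the 6 had them all below, as did 9.2% of all genes. Its difference across days was 0.35 (SE 0.13, unadjusted p = 0.0332, adjusted p = 0.563) and did not pass the test. The gene for its ligand, Nppc, had 0 UMIs in sham day 3, was listed with 6 counts in MI day 7 replicate 2 and was not listed in the other 3 tables.

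Npr3, the clearance receptor, was higher in both day 3 sections than in the 3 day 7 sections. Its level was 14.7 CPM in sham day 3 and 15.3 CPM in MI day 3, against 5.18 CPM in sham day 7 and 6.41 and 9.84 CPM in MI day 7. Of all genes, 39.1% were likewise above in both day 3 sections and 5.79% below, and of the 6 genes 1 was above and 0 below. MI and sham sections overlapped at these levels, and the difference between days was not tested. MI minus sham was 0.33 across days (SE 0.21, adjusted p = 0.756) and 0.54 at day 7 (SE 0.26, adjusted p = 0.999). Across days it ran from 0.055 without sham day 7 to 0.86 in CM1-dominant spots (adjusted p = 0.403), and at day 3 it was 0.055 over all spots and 0.98 in CM1-dominant spots, with no test. In a tissue section, fewer cells of a type and less RNA per cell cannot be told apart.

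The next question was where in the section the genes were expressed. Moran's I, a measure of how alike neighbouring spots are that is near 0 for a random layout, was 0.459 and 0.435 for Nppa in the sham sections, 0.889 in MI day 3, and 0.517 and 0.718 in MI day 7 replicates 1 and 2. Among 12946 genes Nppa ranked 1 in MI day 3 and in MI day 7 replicate 2, and 10 to 21 in the other sections. The gene medians were 0.00417 to 0.0272. Nppa was thus among the most spatially ordered genes in each section, sham included. Nppb had values of 0.127 and 0.154 in sham, 0.409 in MI day 3, and 0.318 and 0.258 in MI day 7. Npr3 had 0.203 and 0.0791 in sham, 0.301 in MI day 3, and 0.296 and 0.245 in MI day 7. Npr1, Npr2 and Corin were low throughout, between -0.0110 and 0.124.

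For Nppa, Nppb, Npr1 and Npr3, all 3 MI sections had a higher Moran's I than either sham section. That was 4 of 6 genes, beside 21.9% of all genes, and 0 of 6 were lower in each, beside 3.87%. For each the exact two-sided permutation test gave p = 0.2, the smallest that 3 against 2 sections allow (0.3 after adjustment over the 6 genes).

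**Figure D2:**
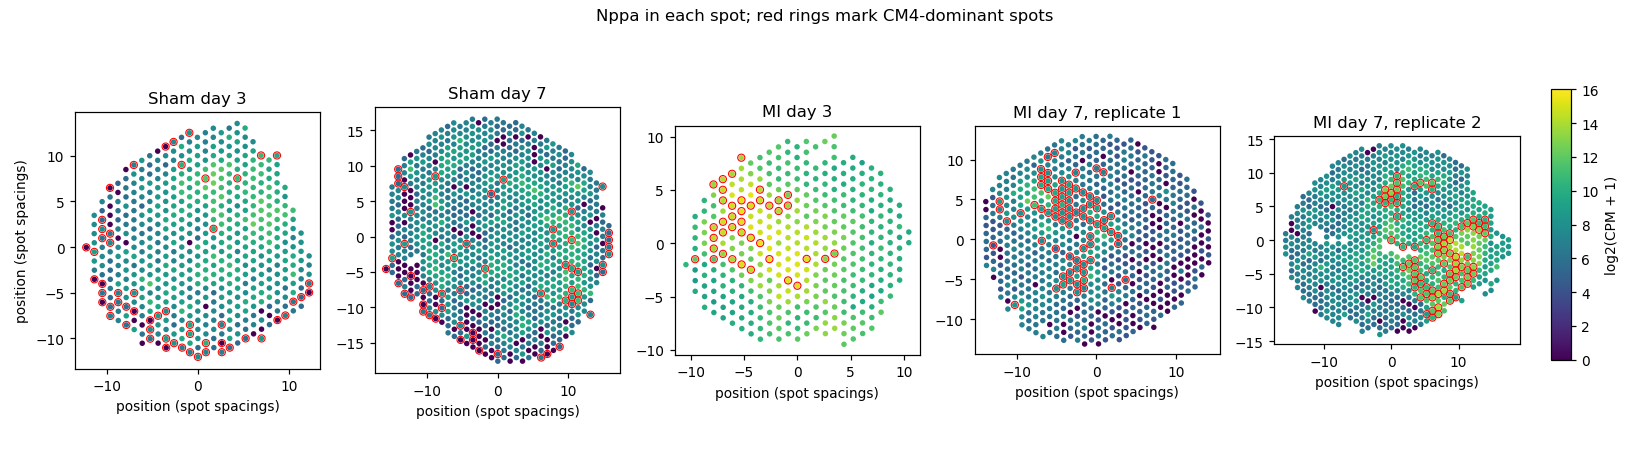
Nppa in each spot of the 5 sections as log2(CPM + 1), by position in spot spacings, with red rings around the spots whose highest score was CM4. In the 3 MI sections the ringed spots lie in patches with high Nppa, whereas in the sham sections many lie along the outer edge (56.1% in day 3 and 43.1% in day 7).

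The authors deposited 11 cell type scores for each spot, transferred from their single-nucleus data. They include 5 cardiomyocyte populations, CM1 to CM5, and CM4 is the population they describe as immature and responsive to injury. Spots with CM4 as the highest score are called CM4-dominant here and numbered 40 to 84 per section. Bordering spots were those next to a CM4-dominant spot that were not CM4-dominant themselves (75 to 188 per section), and remote spots lay beyond the 3 nearest rings of spots around any of them (156 to 343). The scores were made from the same expression values, so zones drawn from them are not independent of the genes measured.

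In MI sections Nppa was lower with each step away from CM4-dominant spots. In MI day 3 the mean level was 22578 CPM in CM4-dominant spots, 15101, 8134 and 4464 CPM in the next 3 rings of spots, and 2154 CPM in remote spots. In MI day 7 replicate 1 it was 336, 321, 139, 84.8 and 34.2 CPM in the same order. In MI day 7 replicate 2 it was 4447, 2357, 1219, 405 and 236 CPM. Although the 3 sections differed in level, each declined at every step. The sham sections did not show this order: the levels were 327, 506, 689, 585 and 748 CPM in sham day 3 and 340.2, 359, 330.4, 311 and 269.7 CPM in sham day 7.

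Nppb showed the same order in MI with a smaller range. Its levels from CM4-dominant to remote spots were 693, 333, 178, 160.0 and 129 CPM in MI day 3. They were 224, 162, 123, 122 and 87.1 CPM in MI day 7 replicate 1, and 477, 309, 198, 171 and 159 CPM in replicate 2. In sham day 3 the levels were 84.6, 109.6, 133, 118 and 131 CPM, and in sham day 7 they were 238, 238, 228, 225 and 206 CPM. Thus Nppb was highest in CM4-dominant spots in the MI sections and, by a small margin, in sham day 7, where it was also lower outward, and it was lowest there in sham day 3.

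**Figure D3:**
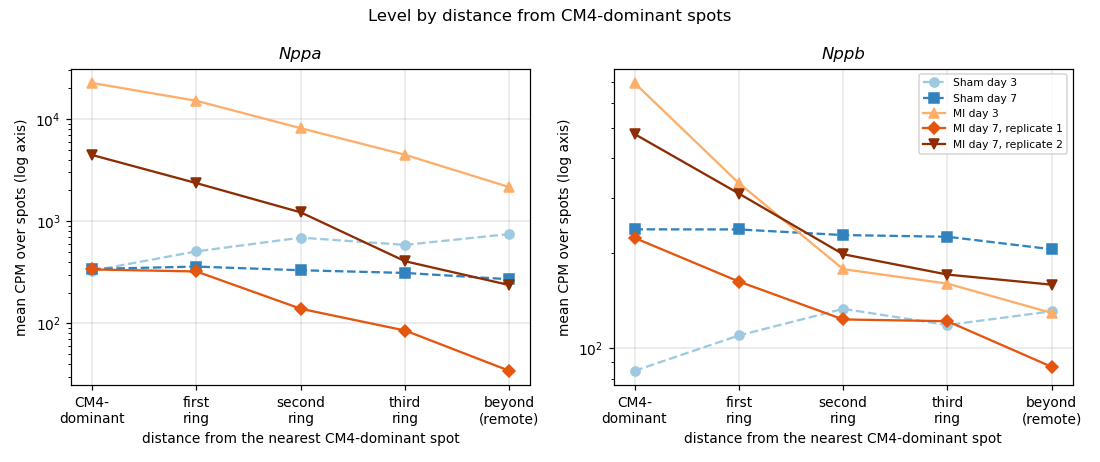
Mean CPM of Nppa (left) and Nppb (right) in CM4-dominant spots, the next 3 rings of spots and remote spots, on a log axis, with 1 line a section (dashed for sham). The 3 MI lines fall from left to right, from 22578 to 2154 CPM for Nppa in MI day 3, while the sham lines run from 327 to 748 CPM (day 3) and stay within 269.7 to 359 CPM (day 7).

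In the MI sections, Nppa was 7.01, 9.41 and 9.97 times as high in bordering as in remote spots (MI day 3 and MI day 7 replicates 1 and 2), and Nppb 2.58, 1.87 and 1.95 times. In sham day 3 and day 7 the ratios were 0.676 and 1.33 for Nppa and 0.838 and 1.16 for Nppb. MI and sham sections did not overlap for either gene. Of all genes, 33.6% had this difference above in all 3 MI sections and 3.67% below, and of the 6 genes Nppa and Nppb were above and Npr1 below. Over the 3 MI sections the log2 difference was 3.11 for Nppa (SE 0.14, limma with section as a block, adjusted p = 9.87e-08) and 1.07 for Nppb (SE 0.10, adjusted p = 6.34e-05). These 2 of 6 genes were called, beside 10.7% of all genes called higher and 0.436% lower. The fit, which included the sham sections, had 3 residual degrees of freedom against 9.96 for the spread pooled over genes. Most of the spread behind these p-values thus came from other genes. The split over all genes depended on the scaling, with 1419 genes higher and 58 lower here against 315 higher and 421 lower with median-of-ratios scaling, under which Nppa (2.88) and Nppb (0.84) still passed. Nppa had the largest difference of 13315 genes and Nppb was at place 189. The median gene was itself higher by 0.21 in bordering spots, and relative to it Nppa was higher by 2.90 and Nppb by 0.86.

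The difference between MI and sham sections in this contrast was 3.18 for Nppa (SE 0.23, adjusted p = 4.37e-05) and 1.09 for Nppb (SE 0.16, adjusted p = 0.0150), in a test that called 0.533% of genes higher and 0.0676% lower. Nppa passed under each alternative tried. Nppb did not pass with a pseudocount of 10 (adjusted p = 0.0805), in interior spots (0.0838), in spots with a CM4 score under 0.1 (0.345) or without the sham day 3 section (0.561). In sham sections alone the differences were -0.08 (SE 0.18) and -0.02 (SE 0.13), and 0 of 6 genes were called, beside 0.0225% of all genes higher and 0 lower. None of the 6 had an unadjusted p under 0.05 there. Over all 5 sections Nppa was higher by 1.83 (SE 0.42, adjusted p = 0.0523) and Nppb by 0.63 (SE 0.16, adjusted p = 0.0903), and 0 of 6 genes were called, beside 1.07% of all genes higher and 0.00751% lower. Without the sham day 3 section both passed, with adjusted p-values of 0.0032 and 0.00617, in a fit that called 446 genes higher and 4 lower of 13203. Nppa passed in 9 of 15 alternatives in all, among them without sham day 7 (0.0213, with 157 genes higher of 13271) and without MI day 3 (0.0494, with 127 higher of 13116).

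The Nppa difference in MI sections was also measured in spots least likely to hold CM4 cells by the deposited score. With both zones limited to spots with a CM4 score under 0.1, it was 2.35 (SE 0.14) and that of Nppb was 0.53 (SE 0.10), and both passed. With both zones limited to CM1-dominant spots, which left the MI day 7 sections since MI day 3 had 18 such bordering spots, the differences were 2.24 (SE 0.13) and 0.80 (SE 0.09). That fit had 2 residual degrees of freedom against 21.2 for the spread pooled over genes. The highest 10% of spots for Nppa lay within CM4-dominant or bordering spots for 86.5%, 82.6% and 83.3% in MI day 3 and MI day 7 replicates 1 and 2, where 30.1% to 33.6% of all spots lay. In sham day 3 and day 7 the shares were 24.1% and 40.6%, with 33.5% and 25.6% of all spots.

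The bordering spots differed in position and makeup too. Of bordering spots, 5.81% to 12.5% lay at the section's edge in MI sections against 28.2% to 35.9% of remote spots, whereas in sham sections these shares were 14.9% to 24.0% and 7.47% to 8.96%. Both ligands were lower at the edge, as described below. In interior spots alone the difference between MI and sham sections was 3.05 for Nppa (adjusted p = 1.07e-05) and 0.99 for Nppb (adjusted p = 0.0838). The fibroblast score averaged 17.6% in bordering and 0.911% in remote spots of MI day 3, 22.4% and 4.30% in MI day 7 replicate 1, and 22.7% and 6.39% in replicate 2. Fibroblast markers (6 genes) summed to 5748 to 7896 CPM in bordering and 3249 to 4638 CPM in remote spots of MI sections, against 4242 to 4307 and 3270 to 3451 CPM in sham. Immune markers (6 genes) summed to 1961 CPM in bordering and 203 CPM in remote spots of MI day 3, and to 143 to 202 CPM in either zone of MI day 7. The part of these other cell types in the Nppa and Nppb differences was not tested.

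Neither the receptors nor Corin passed this test. Npr3 was at 20.9 and 12.1 CPM in bordering and remote spots of MI day 3, at 8.60 and 3.91 CPM in MI day 7 replicate 1 and at 13.2 and 10.0 CPM in replicate 2. It was higher in bordering spots in each MI section, by 0.69 on the log2 scale (SE 0.22, adjusted p = 0.0585), and also in sham day 3 (17.4 against 11.4 CPM) but not in sham day 7 (3.04 against 4.53 CPM). In spots with a CM4 score under 0.1 it passed (adjusted p = 0.00723), while in CM1-dominant spots the difference was -0.15. Npr1 was at -0.24 (SE 0.16, adjusted p = 0.314), Npr2 at 0.28 (SE 0.13, adjusted p = 0.164) and Corin at 0.12 (SE 0.12, adjusted p = 0.490). MI day 3 had the lowest Npr1 ratio, with 18.0 CPM in bordering and 29.8 CPM in remote spots.

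**Figure D4:**
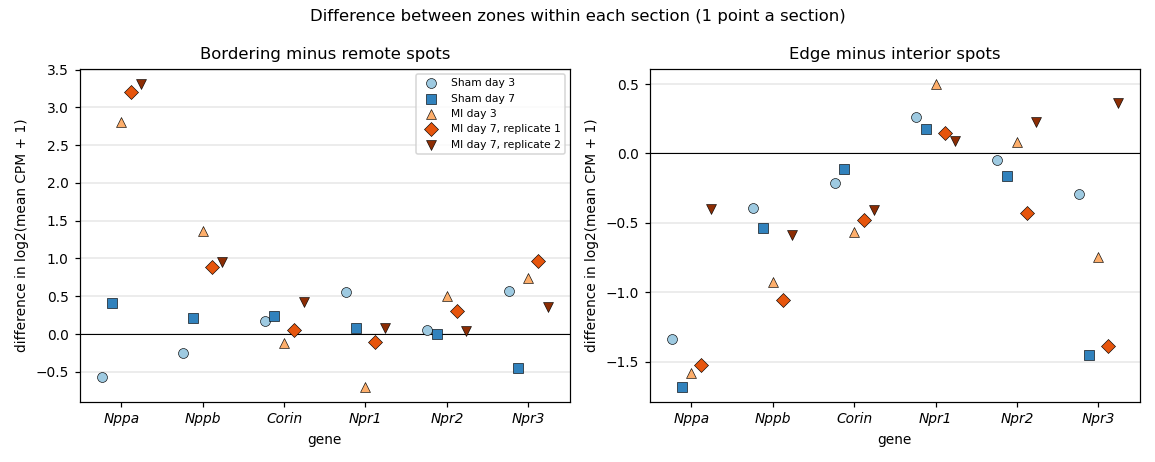
Log2 differences of mean CPM plus 1 between bordering and remote spots (left) and between edge and interior spots (right) for the 6 genes, with 1 point a section. On the left the 3 MI points of Nppa and of Nppb lie above the sham points, and on the right all 5 points of Nppa, Nppb and Corin lie below 0.

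Position in the section was also set without any score, by comparing spots at the section's edge, with fewer than 6 neighbours, with interior spots. Nppa was higher inside in all 5 sections, at 676 against 268 CPM in sham day 3, 342 against 106 CPM in sham day 7 and 9479 against 3174 CPM in MI day 3. In MI day 7 it was at 175 against 60.3 CPM in replicate 1 and at 1324 against 1004 CPM in replicate 2. Nppb was 1.31 to 2.09 times as high inside. Edge spots were lower by 1.30 for Nppa on the log2 scale (edge minus interior -1.30, SE 0.11, adjusted p = 8.36e-07), and the differences were -0.70 for Nppb (SE 0.07, adjusted p = 7.29e-06) and -0.36 for Corin (SE 0.09, adjusted p = 0.0304). These 3 of 6 genes were called lower, beside 3.72% of all genes lower and 0.803% higher. The split over all genes turned with the scaling, from 107 higher and 496 lower to 175 higher and 55 lower with median-of-ratios scaling, under which Nppa (-1.18) and Nppb (-0.57) still passed. The call of Corin was lost in 5 of 12 alternatives, among them median-of-ratios scaling (-0.23, adjusted p = 0.253). Without 1 of the sections it was also lost for sham day 3 (adjusted p = 0.0587), MI day 3 (0.105) and MI day 7 replicate 1 (0.145).

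Npr3 was lower at the edge in 4 of 5 sections (-0.70, SE 0.21, adjusted p = 0.0585), with MI day 7 replicate 2 going the other way (12.2 CPM at the edge, 9.26 CPM inside). It passed in 3 of 12 alternatives, without that section (-0.97, adjusted p = 0.00267), in spots with at least 5000 UMIs (-0.81, adjusted p = 0.0367) and in all deposited spots (-0.73, adjusted p = 0.0493). The differences were 0.24 for Npr1 (SE 0.10, adjusted p = 0.155) and -0.07 for Npr2 (SE 0.11, adjusted p = 0.722). The edge contrast did not pass for any gene as a difference between MI and sham, with 0 genes called in either direction by limma. Before adjustment 422 genes were higher and 359 lower (p under 0.05). Without MI day 7 replicate 2, Nppb passed in this test (-0.53, adjusted p = 0.0385). The 5 blood markers Hba-a1 (1.097), Hbb-bt (1.05), Hbb-bs (0.86), Alas2 (0.81) and Hba-a2 (0.69) were all higher at the edge, and the epicardial marker Msln was higher by 2.82 (SE 0.27, adjusted p = 1.66e-06). The part of blood and epicardial cells in the edge differences was not tested.

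Levels by the highest score of each spot are given as a description, with no test, since the scores and levels come from the same values. Above CM1-dominant spots in each section were 2 of the 6 genes in FB-led spots (31.2% of all genes), 2 in EC-led (13.9%), 2 in EndoEC-led (16.8%), 0 in CM4-dominant (8.8%) and 0 in Macrophage-led spots (16.7%). Below them in each section were 0 of 6 genes in any of these classes, beside 5.49%, 1.67%, 4.94%, 2.38% and 5.7% of all genes. The classes FB, EC and EndoEC are named for the fibroblast, endothelial and endocardial scores. Npr3 was highest in spots led by the endocardial (EndoEC) score in each section. It was at 58.8 CPM there against 3.50 CPM in CM1-dominant spots in sham day 3, at 27.9 against 1.58 CPM in sham day 7 and at 79.1 against 7.88 CPM in MI day 3. In MI day 7 it was at 34.4 against 1.87 CPM in replicate 1 and at 69.6 against 5.73 CPM in replicate 2. The mean log2 ratio was 3.48 ± 0.22 (SD, n = 5 sections), positive in 5 of 5. Fibroblast-led (FB) spots held the next highest Npr3 level in each section (10.1 to 23.6 CPM, log2 ratio 2.05 ± 0.41 over CM1). In spots led by the other endothelial (EC) score Npr3 was at 1.58 to 15.4 CPM.

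Nppa was higher in CM4-dominant than in CM1-dominant spots in 4 of 5 sections. The levels were 22578 against 3351 CPM in MI day 3, 336 against 56.3 CPM and 4447 against 415 CPM in MI day 7 replicates 1 and 2, and 340.2 against 248 CPM in sham day 7. In sham day 3 they were 327 against 573 CPM. The FB-led spots were above CM1-dominant spots in 5 of 5 sections (log2 ratio 1.90 ± 1.29, SD), and the EC-led spots likewise (1.08 ± 0.83). Nppb was above CM1 in CM4-dominant spots in 4 of 5 sections too (0.77 ± 0.97). Npr1, Npr2 and Corin had mean log2 ratios to CM1 between -0.39 and 0.38, but single sections went further, to -2.20 for Corin in Macrophage-led spots of MI day 3 (5.71 against 29.8 CPM, 20 spots), -1.17 for Npr1 in CM4-dominant spots of MI day 3 and 0.98 for Corin in EndoEC-led spots of MI day 3. As medians over spots, where many spots are at 0, the mean ratios of Npr1 and Corin in EndoEC-led spots were -1.83 and 1.29. The spot-level rank correlation of Nppa with the CM4 score was 0.77 in MI day 3 and 0.56 and 0.62 in MI day 7, against -0.24 and -0.07 in sham day 3 and day 7. With the CM5 score it was -0.34, -0.18, -0.25, 0.36 and 0.06 in the same order. Other scores also correlated with Nppa. In MI day 3, sham day 3 and sham day 7 the values were 0.68, 0.24 and 0.17 for the fibroblast score and 0.45, 0.23 and 0.18 for the CM2 score. Nppa and the spot's raw UMI total correlated at -0.16 to 0.30, over 366 to 960 spots a section, and all these correlations are over spots that share a library.

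**Figure D5:**
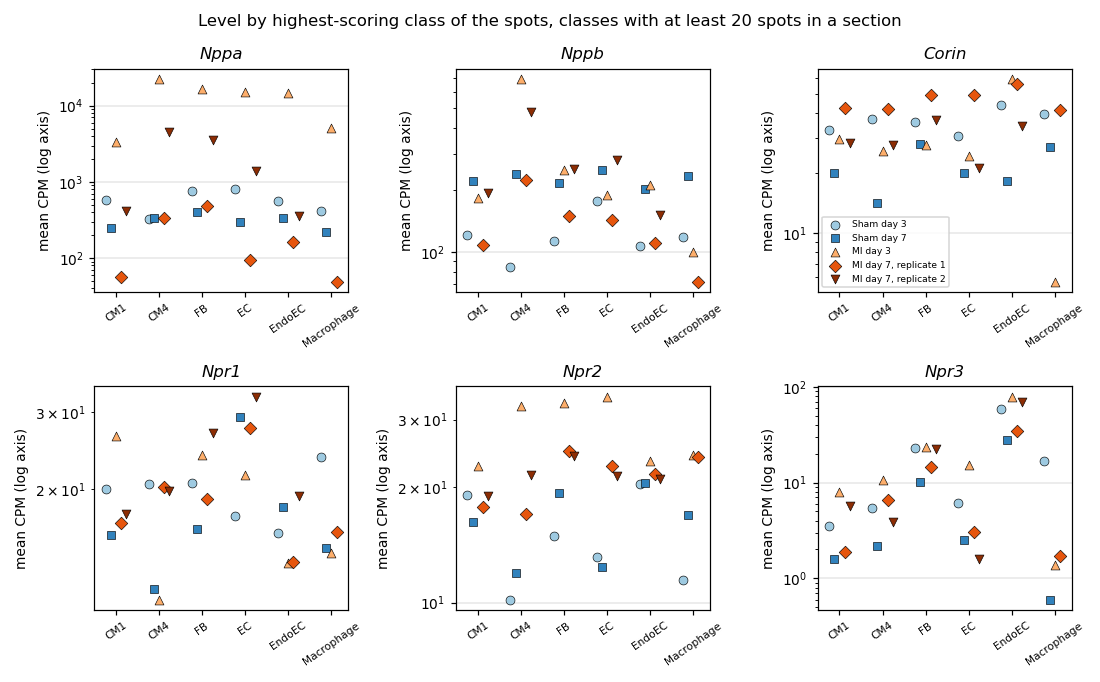
Mean CPM (log axis) of the 6 genes by the highest score of the spot, for classes with at least 20 spots in a section, with 1 point a section. Npr3 is highest in EndoEC-led spots in each section (27.9 to 79.1 CPM), and Nppa is higher in CM4 than in CM1 spots except in sham day 3.

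The genes most like each pattern were named by the mean over the 5 sections of the rank correlation across spots, among 7599 genes (7600 for Npr3) with at least 10 CPM in each section. For Nppa they were Myl9 (mean rho 0.53), Nppb (0.46), Ankrd1 (0.46), Clu (0.40), Cox6a1 (0.39), Postn (0.38), Sparc (0.38) and Serf2 (0.37). Myl9 encodes a regulatory myosin light chain of smooth muscle, and Ankrd1 a stretch-responsive ankyrin repeat protein of cardiomyocytes. For Nppb they were Ankrd1 (0.53), Nppa (0.46), Myl9 (0.34), Acta1 (0.30), Actc1 (0.30), Des (0.30), Ccn2 (0.26) and Tnfrsf12a (0.26). Nppa and Nppb correlated with each other at 0.36 to 0.66 within sections. For Npr3 they were H19 (0.345), Igf2 (0.32), Vwf (0.29), Tm4sf1 (0.29), Bace2 (0.29), Postn (0.28), Cpe (0.27) and Pdlim3 (0.27), of which Vwf encodes von Willebrand factor of endothelial and endocardial cells. The correlations describe spots that share a library and cells, and carry no test.

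The wider pathway was followed with lists of genes that process the peptides, carry the cGMP signal or regulate Nppa and Nppb. Between bordering and remote spots of MI sections, 5 of 13 tested genes of cGMP synthesis, breakdown and action were higher and 0 lower (median 0.29, against 0.21 for all genes, of which 10.7% were called higher and 0.436% lower). They were the phosphodiesterases Pde1a (1.04, SE 0.23, adjusted p = 0.0140), Pde5a (0.78, SE 0.16, adjusted p = 0.0102) and Pde9a (0.75, SE 0.21, adjusted p = 0.0405), which break down cyclic nucleotides, and the soluble guanylyl cyclase subunits Gucy1b1 (0.56) and Gucy1a1 (0.41), which make cGMP in response to nitric oxide. Pde1a was at 23.9 against 7.38 CPM in MI day 3, 9.66 against 7.55 CPM in MI day 7 replicate 1 and 15.5 against 5.98 CPM in replicate 2. Of 6 tested genes of peptide processing and clearance, the convertase Pcsk6 was higher (0.42, SE 0.12, adjusted p = 0.0395) and none lower (median 0.33). Of the 13 tested regulators, 0 were higher and 2 were lower (median 0.03): Hey2, a repressor of atrial and trabecular genes in compact muscle (-0.85, SE 0.14, adjusted p = 0.00304), and the GATA factor Gata6 (-0.34, SE 0.09, adjusted p = 0.0337). With median-of-ratios scaling Pde1a remained of the 5 cGMP genes, Pcsk6 was lost and Ide was lower, and Hey2 and Gata6 remained, with Mef2a and Tbx20 also lower.

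Counts of the cardiomyocyte and other cell type lists in the same test also stand beside 10.7% of all genes higher and 0.436% lower. Of 7 wall stress genes, Xirp2 (1.39), Acta1 (1.32) and Ankrd1 (0.52) were higher in bordering spots of MI sections and 0 lower, with a list median of 0.07. Of 6 tested atrial markers 3 were called higher (Dkk3 1.43, Myl7 1.31, Myl4 0.99, with a list median of 0.74) and 0 lower. By sign alone, 4 lay above 0 and 2 below, and 3 each way as a difference between MI and sham. Myl7 had few counts in the day 7 sections. Of 7 trabecular and conduction markers 3 were called higher (Slit3 0.97, Gja5 0.93, Etv1 0.55, with a list median of 0.55) and 0 lower. None of the 8 ventricular markers passed in either direction (median -0.22). Atrial markers summed to 243 CPM in bordering and 97.1 CPM in remote spots of MI day 3. In MI day 7 the sums were 70.7 against 41.6 CPM in replicate 1 and 95.2 against 48.4 CPM in replicate 2. In sham they were 143 against 141 CPM (day 3) and 59.0 against 62.1 CPM (day 7). Among markers of other cells, 6 of 6 fibroblast, 3 of 6 smooth muscle and pericyte, 1 of 7 endocardial (Plvap, 1.20) and 1 of 6 immune genes (C1qa, 1.01) were higher, 4 of 5 blood genes were lower, and 0 of 6 endothelial and 0 of 2 epicardial genes passed. The fibroblast genes were Col1a1 (1.11), Postn (1.08), Tcf21 (0.85), Col3a1 (0.83), Pdgfra (0.77) and Dcn (0.49), the smooth muscle and pericyte genes Tagln (1.23), Acta2 (0.73) and Pdgfrb (0.33), and the blood genes Hbb-bt (-0.54), Hba-a1 (-0.52), Hbb-bs (-0.50) and Hba-a2 (-0.43). In sham sections Tagln alone of these genes passed (1.39). Of all these genes, the difference between MI and sham passed for Myl4 (1.28), Postn (0.74) and the globin Hbb-bt (-1.01), beside 0.533% of all genes higher and 0.0676% lower. With median-of-ratios scaling the 3 atrial, 4 blood, 5 of 6 fibroblast and 2 of 3 smooth muscle calls and those of Xirp2, Acta1 and Plvap remained in MI sections. Those of Ankrd1, C1qa and the 3 trabecular genes were lost, and Xirp1, 3 ventricular and 3 endothelial genes became lower. Between MI and sham, Postn was lost and Hba-a2 became lower.

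At the section edge, trabecular and conduction markers were lower for 4 of 7 genes (Irx3 -1.53, Cacna2d2 -1.05, Gja5 -1.03, Etv1 -0.71) and higher for 0, with a list median of -0.82 against -0.12 for all genes, of which 3.72% were called lower and 0.803% higher. Irx3 and Gja5 mark the trabecular and conducting muscle of the inner wall. The convertase gene Pcsk6 (-0.76) was lower too. Of the 13 cGMP genes, Prkg1, which encodes a cGMP-dependent kinase, was lower (-0.50) and Gucy1a1 was higher (0.30). Of the regulators, 3 were higher there, Hey2 (0.52), Hand2 (0.33) and Tbx20 (0.21), with 0 lower. The atrial markers Kcnj3 (-0.76) and Myl4 (-0.55), the wall stress genes Xirp2 (-0.46), Ankrd1 (-0.44) and Flnc (-0.19), and the endocardial markers Cytl1 (-1.43) and Tmem100 (-0.78) were lower. The ventricular marker Actc1 was lower (-0.20). Among fibroblast markers Col1a1 (0.53) and Col3a1 (0.38) were higher and Postn lower (-0.38), and the immune marker Csf1r was higher (0.55). With median-of-ratios scaling the calls of Cacna2d2, Prkg1, Kcnj3, Myl4, Xirp2, Flnc, Tmem100, Actc1 and Postn were lost, Acta1 and Vwf became higher, and the other list calls at the edge remained.

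Across whole sections, no gene of any list passed the test of MI against sham across days. The largest differences were 0.47 for Gucy1a1 and 0.40 for Pde1a among the cGMP genes, -0.475 for Pcsk6 and -0.47 for Mme, the peptidase neprilysin, among the processing genes, and 0.49 for Nfatc4 and -0.17 for Tbx5 among the regulators. Among wall stress genes they were 0.96 for Xirp2 and 0.59 for Myh7, and among atrial markers 0.78 for Myl7 and 0.39 for Dkk3. Immune markers summed to 880.3 CPM in MI day 3, 146 and 226 CPM in MI day 7, and 87.0 and 93.99 CPM in the sham sections, so the section highest in Nppa was also the highest in immune markers. Their part in the Nppa level was not tested.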

How the data were processed

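Visium spatial RNA-seq of 5 heart sections was analysed. Per the submitters' processing notes, reads were processed with Space Ranger against mm10 (GRCm38), with no version given. In the sham day 3 table the deposited values were raw UMI counts per spot and gene. The other 4 tables held counts that the authors had corrected for depth with sctransform in Seurat, treated here as a score and not as raw counts, so no count test was run. The deposited raw UMI count of each spot gave the depth. The cell type scores were deposited as a fraction per spot, made by the authors by label transfer from their single-nucleus data, and summed to 1 over 11 types.

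Of 3364 deposited spots, 21 lying apart from the tissue (not joined to it within 1.25 spot spacings) were left out, a filter added after the maps were seen. CPM over the 13711 shared genes were averaged over the spots of a section or zone, the section being the replicate, and log2(mean CPM + 1) was tested with limma 3.58.1 (trend, R 4.3.3) over all genes whose mean reached 1 CPM in 2 or more columns. A call is a Benjamini-Hochberg adjusted p under 0.05. A fold change on this scale understates the change of low genes. Zone contrasts had the section as a block. The script was tested on simulated data. Moran's I used spots within 1.25 spacings (Python 3.11.15, scipy 1.17.1).

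The members and gene lists were chosen with earlier results of these data known. The text names the 6 members in each comparison, the list genes that passed between bordering and remote spots in MI or sham sections or between edge and interior spots, the largest differences of a list across days, and the 8 genes with the highest mean spot correlation to Nppa, Nppb and Npr3. Alternatives tried were other scaling, gene sets, pseudocounts, filters, spot choices and distances, models without day or with sex, and each section left out. Promoters came from RefSeq (GRCm38.p6) and gene positions from GENCODE (GRCm38). Nppc, Ostn and Prkg2 had 0 UMIs in sham day 3. Ostn and Prkg2 were not listed in the other tables and went into no test.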

Additional observations from a re-analysis of the deposited data

Results flagged for a closer look

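The difference between bordering and remote spots was tested for a change between MI and sham sections and passed for both ligands, for Nppb only under some settings. The MI minus sham difference was 3.18 for Nppa and 1.09 for Nppb on the log2 scale, each by a test of the difference itself (limma, adjusted p = 4.37e-05 and 0.0150). Nppa was higher in bordering spots in 3 of 3 MI sections and in 1 of 2 sham sections, and Nppb likewise. The call of Nppb was lost without sham day 3 (adjusted p = 0.561), with a CM4 score under 0.1 (0.345), in interior spots (0.0838) and with a pseudocount of 10 (0.0805), while that of Nppa passed in each alternative tried.

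Nppc, which encodes C-type natriuretic peptide, the ligand of Npr2, went into no comparison but was listed in MI day 7 replicate 2 with a total of 6 corrected counts in 5 spots (0.632% of its deposited spots). In sham day 3 it had 0 UMIs, which allows up to 0.324 CPM.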

How the results depend on the processing

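Of 501 differences of the 6 genes under other settings, 453 kept their direction and side of the threshold, 9 lost and 19 gained a call, and 20 changed sign, the cause of which was not tested. The number of members past the threshold was 0 across days (1 of 12948 genes called) and 1 with sex as a covariate (576 of 12948), with 0 to 1 when a section was left out. At day 3 it was 2, and 1 with median-of-ratios scaling, without mitochondrial and haemoglobin genes, with a pseudocount of 10, pooled CPM or CM1-dominant spots. For day 7 minus day 3 it was 0, against 1 in CM1-dominant and 2 in interior spots, in fits whose spread was pooled over genes and that called 54 of 12757 and 220 of 12929 genes, against 13 of 12948. For bordering spots over all sections it was 0, against 1 with a pseudocount of 0.1, CM1-dominant spots, spots with at least 5000 UMIs, all deposited spots or interior spots, and 2 with a CM4 score under 0.1 (0 to 2 with a section left out). For MI minus sham it was 2, against 1 with a pseudocount of 10, interior spots or a CM4 score under 0.1 (1 to 2 with a section left out). For MI sections the 2 calls stayed, with Nppa at 2.24 or above and Nppb at 0.53 to 1.16. The Npr3 ratio of EndoEC to CM1 spots was 3.48, 3.89 with the highest score at least 0.5, and 4.28 as a median over spots. The median ratio varied more between sections (SD 2.47), with 4 of 5 sections above CM1 and the lowest at 0.

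Signs changed for Nppb across days in CM1-dominant spots (-0.093) and with a section left out (-0.36 to 1.02), for Corin across days (-0.20 to 0.65), and at day 7 for Nppa in CM1-dominant spots (-0.69) and with a section left out (-0.97 to 2.01) and Nppb (-0.76 to 0.044). At day 3 Npr3 was -0.019 with median-of-ratios scaling. In bordering spots of MI sections Npr3 was -0.15 in CM1-dominant spots, and Corin was -0.10 with median-of-ratios scaling and -0.031 to 0.24 with a section left out. In sham sections Nppa was 0.25 in CM1-dominant spots, 0.10 in interior spots and 0.00414 with a CM4 score under 0.1 (-0.56 to 0.41 with 1 section), and Nppb was 0.087 and 0.079 in the first 2 (-0.25 to 0.21). Npr2 was 0.053 at the edge with median-of-ratios scaling (-0.14 to 0.024 with a section left out), the MI minus sham difference of its Moran's I was -0.0014 to 0.036 with a section left out, and its log2 ratio was -0.96 as a median ratio of EndoEC to CM1 spots.

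Counts of genes called over all settings, beside which the members' counts above stand, moved by more than 1.5 times: across days from 1 to between 0 and 576, at day 7 from 9 to between 0 and 109, for day 7 minus day 3 from 13 to between 0 and 220, for bordering spots from 143 to between 3 and 450, in MI sections from 1477 to between 21 and 1590, in sham sections from 3 to between 1 and 22 (14 higher and 8 lower in CM1-dominant spots), for MI minus sham from 80 to between 3 and 353, at the edge from 603 to between 149 and 753, and for its MI minus sham difference from 0 to between 0 and 13. The settings with at least 5000 UMIs or all deposited spots, and the interior and low-CM4 zones, were chosen after seeing the data. No paired analysis was possible because the groups shared only replicate number 1, given in accession order. With 2 sham and 3 MI sections, sex, depth and surgery overlap, and MI day 3 and sham day 3 have 1 section each.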
